A study of Mus musculus with 2 samples.

Results

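The platelet-derived growth factor (PDGF) family was read here as 6 genes of the 32285 in each count table, namely the receptors *Pdgfra* and *Pdgfrb* and the ligands *Pdgfa*, *Pdgfb*, *Pdgfc* and *Pdgfd*. They were taken by symbol as the members of the family, and the rule uses no measured value, although the family was picked with earlier results of these data known. The data are single-cell RNA sequencing of optic nerves from Nf1OPG mice (Nf1 flox/mut; GFAP-Cre, on a C57BL/6 background), a model of the low-grade optic glioma of neurofibromatosis type 1. Both libraries, named C-ON and FMC_new, carry the genotype label NF1-OPG, and each suspension is described as pooled from 10 mice aged 12 weeks. The title of C-ON says control and that of FMC_new says FMC new, and the labels explain neither term. *Nf1* loss in this model follows GFAP-Cre, which acts in astroglial cells and their precursors, and pooling leaves no value for a single animal. With 2 libraries of 1 genotype and no wild-type nerve, each value is given per library, with the mean ± SD over both and no test.

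PDGF ligands are secreted dimers, and their receptors are tyrosine kinases on the cell surface. PDGFRα binds the A, B and C chains and PDGFRβ binds the B and D chains, with the C and D chains released from a latent form by proteases. In the central nervous system PDGFRα marks oligodendrocyte precursors, for which the A chain is a mitogen, whereas PDGFRβ is known for pericytes and fibroblasts that line vessels and meninges.

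On GRCm38, *Pdgfra* (ENSMUSG00000029231) lies at chr5:75152292-75198215, plus strand, and has at most 23 exons in a transcript, and *Pdgfa* (ENSMUSG00000025856) at chr5:138976014-138997370 on the minus strand, with at most 8. Their upstream sequences are shown because this receptor and its ligand had opposite orders in tumor-like and oligodendrocyte-like cells. Both come from RefSeq (GRCm38.p6), whose promoter table held 4 of the 6 members. The *Pdgfra* run covers the 250 bases before the start at chr5:75152001-75152250, plus strand. The *Pdgfa* run, chr5:138995038-138995194 on the minus strand, was kept to the 157 bases outside the gene's annotated exons. These are the part of its 250 bases farthest from the RefSeq start, and the bases nearest that start were cut. The run lies within the span of a longer *Pdgfa* transcript and overlaps the antisense gene 6330403L08Rik in part. Capitals mark matches to the E-box letters CANNTG, to the TATA box TATAAA or to the GC box GGGCGG, each searched on both strands.
Pdgfra: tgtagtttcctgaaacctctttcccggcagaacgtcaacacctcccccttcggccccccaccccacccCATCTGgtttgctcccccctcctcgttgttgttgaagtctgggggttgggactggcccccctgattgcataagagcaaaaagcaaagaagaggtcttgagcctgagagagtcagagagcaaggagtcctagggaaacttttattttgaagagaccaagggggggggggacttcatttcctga
Pdgfa: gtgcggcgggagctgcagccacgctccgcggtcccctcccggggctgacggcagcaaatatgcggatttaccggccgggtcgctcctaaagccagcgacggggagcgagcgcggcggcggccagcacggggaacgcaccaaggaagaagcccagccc
The *Pdgfra* window held 1 E-box match and no other match, where 66.2% of 32851 promoter windows of this length held an E-box, 12.4% a TATA box and 32.7% a GC box. The *Pdgfa* window held no match to the 3 motifs, but the cut bases nearest the start were not searched. Its GC content was 72% and that of *Pdgfra* 54.4%, beside medians of 51.0% and 52.4% over windows of the same 2 lengths.

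The other members lie at chr15:79995874-80014977 on the minus strand (*Pdgfb*, ENSMUSG00000000489), chr3:81036416-81214040 on the plus strand (*Pdgfc*, ENSMUSG00000028019), chr9:6168584-6378850 on the plus strand (*Pdgfd*, ENSMUSG00000032006) and on the plus strand of chromosome 18 (*Pdgfrb*, ENSMUSG00000024620). *Pdgfrb* overlaps no other annotated gene. The other 5 members each overlap at least 1 gene on the opposite strand, such as *Ddi1* within *Pdgfd*.

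The files held 10845 barcodes for C-ON and 21341 for FMC_new, of which 8834 and 16818 were kept, with medians of 6811 and 4676 unique molecular identifiers (UMIs, each a captured transcript) per kept cell. Of the kept cells, 188 barcodes occurred in both libraries. Clustering without the 6 members gave 64 clusters, and 50 of these could be named from fixed marker lists, in 18 classes written as X-like. The libraries differed in make-up, since oligodendrocyte-like cells were 61.8% of C-ON and 13.1% of FMC_new, and pituitary endocrine-like cells, which are foreign to the optic nerve, numbered 20 and 1502. The class called tumor-like (213 and 1289 cells) carries all 12 of its markers, which oligodendrocyte precursors also express, so neoplastic and non-neoplastic precursors cannot be told apart here. No endothelial or mural cluster was found.

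A level is the UMIs of a gene summed over a class in a library, as counts per 1000000 UMIs of those cells (CPM), with a 95% exact Poisson interval. A share is the percent of cells with at least 1 UMI, with a 95% Clopper-Pearson interval. All intervals and limits cover counting error only. Levels are compared for 1 gene between classes, not between genes.

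**Figure D1:**
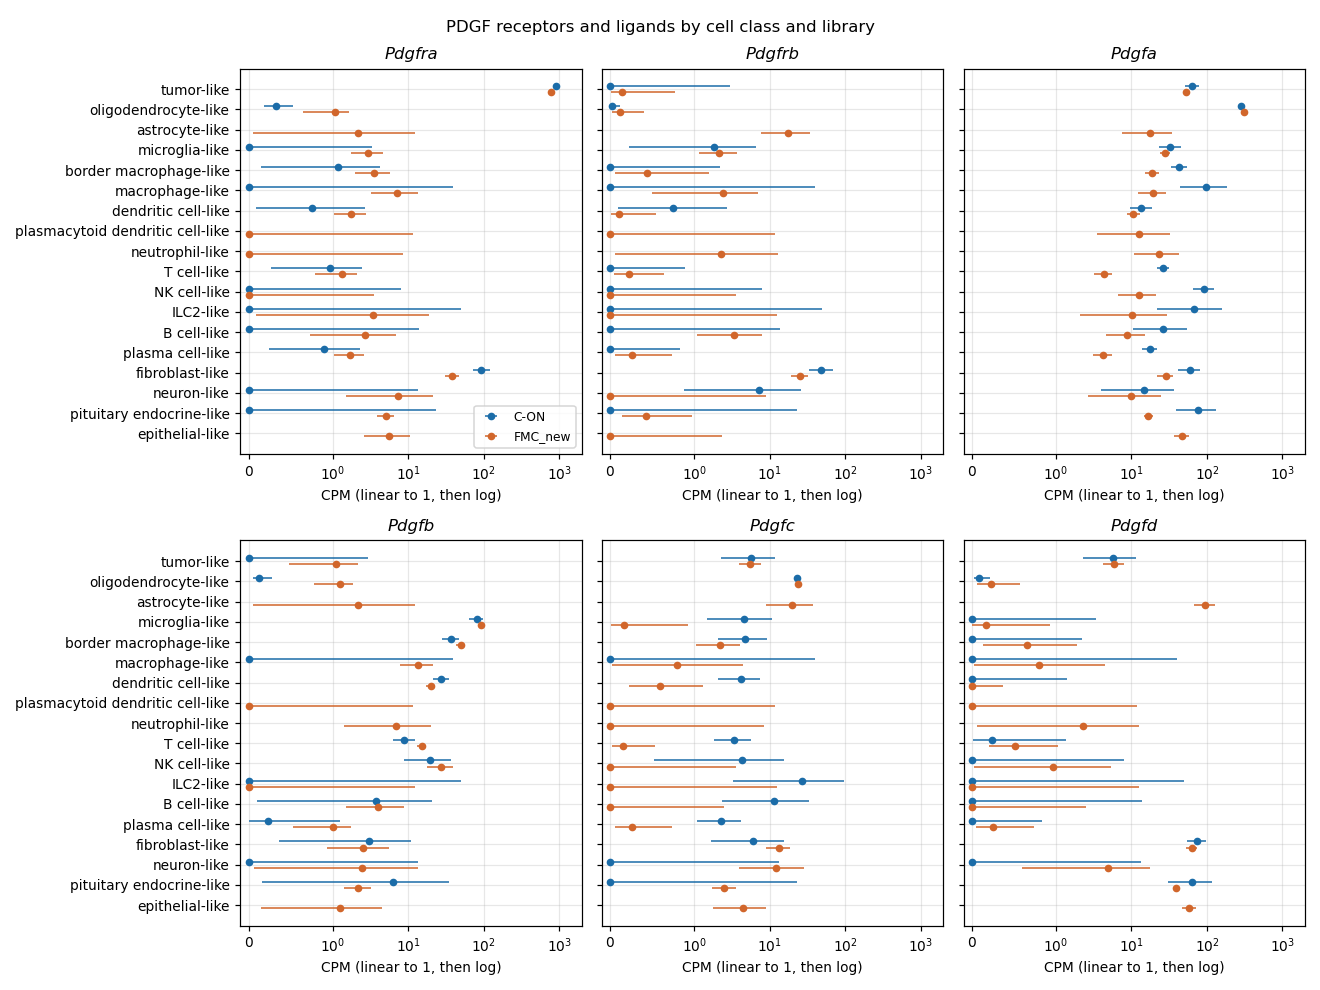
Level of each PDGF member (CPM, axis linear up to 1 and logarithmic above) in the named cell classes of C-ON (blue) and FMC_new (orange), with 95% exact Poisson intervals; classes under 20 cells in a library are left out. *Pdgfra* stood at 922 and 778 CPM in tumor-like cells and *Pdgfa* at 286 and 306 CPM in oligodendrocyte-like cells, each above every other class.

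*Pdgfra*, the receptor for the A, B and C chains, was highest in tumor-like cells in both libraries. Its level there was 922 CPM in C-ON (interval 870 to 977) and 778 CPM in FMC_new (758 to 799), a mean of 850.1 ± 102 (SD, n = 2). Fibroblast-like cells followed at 93.5 and 38.5 CPM, and the ranges of the libraries did not overlap between these neighbours. All other classes with 20 cells in each library had means under 4 CPM, and their order cannot be read because neighbouring ranges overlap. After SCTransform, however, an astrocyte-like class came second for *Pdgfra*, at a mean of 134 CPM.

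A *Pdgfra* UMI was found in 84.5% of tumor-like cells in C-ON (78.9% to 89.1%) and in 78.0% in FMC_new (75.7% to 80.3%). The share in T cell-like cells, which should lack the gene, was 0.4% and 0.494%. Median depths were 5294 and 5487 UMIs in tumor-like cells and 3315 and 3198 in T cell-like cells. Of all *Pdgfra* UMIs in kept cells, tumor-like cells held 90.9% in C-ON and 92.7% in FMC_new, although they held 1.88% and 7.27% of all UMIs.

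Between tumor-like and oligodendrocyte-like cells, *Pdgfra* differed 2869-fold in C-ON (1732 to 5142) and 728-fold in FMC_new (466 to 1211). Of the 4 members with at least 10 UMIs over both classes in each library, *Pdgfra* and *Pdgfd* were at least 4 times higher in tumor-like cells in each library, as were 15.9% of the 15093 genes so measured. *Pdgfa* and *Pdgfc* were at least 4 times higher in oligodendrocyte-like cells, as were 3.8% of the same genes. The receptor and the A chain had opposite orders in these 2 classes.

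Tumor-like cells fell into 4 clusters, and *Pdgfra* was unevenly spread over them. Cluster 8, led by *C1ql1*, *Cspg5* and *Neu4*, had 1124 CPM in C-ON (1054 to 1198, 153 cells) and 894 CPM in FMC_new (868 to 920.3, 772 cells). Cluster 26, led by *Gpr17*, a receptor of committed oligodendrocyte precursors, had 168 CPM in C-ON (107 to 253, 20 cells) and 239 CPM in FMC_new (213 to 268, 382 cells). The intervals of the clusters did not overlap in either library.

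The ligand *Pdgfa* had the reverse order in these clusters. It stood at 63.3 CPM in C-ON (47.5 to 82.6) and 42.2 CPM in FMC_new (36.7 to 48.3) in cluster 8, and at 176 CPM (113 to 262) and 115 CPM (96.7 to 135) in cluster 26. The 11 markers of oligodendrocytes moved with it, all 11 detected in each cluster. Their summed level was 7878 and 1243 CPM in cluster 8 and 23113 and 14503 CPM in cluster 26. The 12 markers of the tumor-like class moved with *Pdgfra* instead. They summed to 12722 and 12456 CPM in cluster 8 and to 2989 and 5180 CPM in cluster 26. The part of either list in the difference was not tested. Median depth in cluster 26 was 7699.5 UMIs in C-ON and 1892 in FMC_new, against 5093 and 6379.5 in cluster 8. At 1000 UMIs per cell, *Pdgfra* was found in 60.5% and 56.0% of the cells of cluster 8 and in 11.1% and 22.3% of those of cluster 26 (18 cells of C-ON, 310 of FMC_new), and *Pdgfa* in 3.95% and 4.15% against 5.56% and 6.77%.

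Cluster 42, led by *Adarb2*, *Csmd1* and *Lrrtm4*, had 593 and 922 CPM of *Pdgfra* and 4.24 and 21.3 CPM of *Pdgfa*. Cluster 62, led by cell cycle genes such as *Pbk* and *Cenpf*, had 22 cells in FMC_new with 755 CPM of *Pdgfra* (647 to 875), and 2 cells in C-ON. As the clusters were drawn from the expression of these cells, their differences are a description. In each of the other 4 clusterings, the tumor-like cluster lowest in *Pdgfra* in FMC_new had 221 to 289 CPM of it, and the highest *Pdgfa* of the tumor-like clusters. In C-ON the same held in 3 of these clusterings, with 217 to 272 CPM of *Pdgfra* in that cluster. After SCTransform it did not, since the cluster lowest in *Pdgfra* in C-ON (703 CPM) had 5.90 CPM of *Pdgfa*, against 69.3 CPM in the other.

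**Figure D2:**
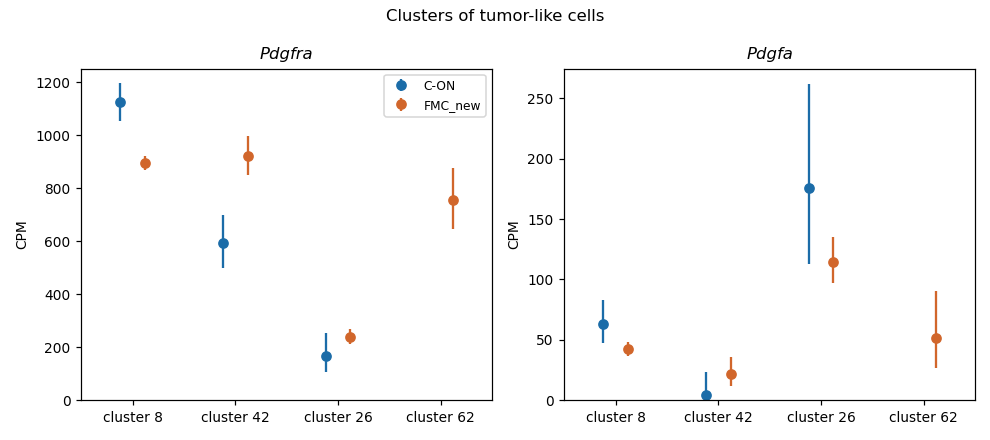
*Pdgfra* (left) and *Pdgfa* (right) in the 4 clusters of tumor-like cells, in CPM with 95% exact Poisson intervals, for C-ON (blue) and FMC_new (orange); a cluster under 20 cells in a library is not drawn. Cluster 26 had the lowest *Pdgfra* (168 and 239 CPM) and the highest *Pdgfa* (176 and 115 CPM) in both libraries.

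Cells were also split by another gene of the same cell, after each cell was thinned to 1000 UMIs so that depth was equal. With a *Gpr17* UMI, 63.9% of tumor-like cells in C-ON (46.2% to 79.2%, 36 cells) and 51.4% in FMC_new (44.5% to 58.3%, 212 cells) had a *Pdgfra* UMI. Without one, the shares were 49.1% (41.5% to 56.8%) and 45.8% (42.7% to 48.9%), and the intervals overlapped in both libraries. At full depth the shares were 89.2% against 80.2% in C-ON and 84.4% against 73.3% in FMC_new. *Gpr17* UMIs were not confined to cluster 26, since 53.6% and 53.1% of the cells of cluster 8 had one at full depth, beside 60% and 26.2% of cluster 26.

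*Cspg4*, a proteoglycan of precursors that binds the A chain and is one of the class markers, gave a wider split than *Gpr17* at 1000 UMIs and at full depth. With its UMI, 67.2% of tumor-like cells in C-ON (53.7% to 79.0%) and 58.8% in FMC_new (52.7% to 64.6%) had *Pdgfra* at 1000 UMIs, against 45.7% (37.6% to 54.0%) and 43.3% (40.1% to 46.5%) without it. The FMC_new intervals did not overlap and those of C-ON did. At 500 UMIs the difference between these shares was -2.24 percentage points in C-ON and 7.12 in FMC_new, so its direction in C-ON depended on depth. With and without *Gpr17*, *Pdgfra* shares at 500 UMIs were 46.2% against 28.3% in C-ON, where 26 cells had *Gpr17*, but 29.1% against 28.3% in FMC_new. Cells with UMIs of at least 2 cell cycle genes numbered 24 in FMC_new at 1000 UMIs, and 50% of them had *Pdgfra* (29.1% to 70.9%), against 46.7% of the others.

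**Figure D3:**
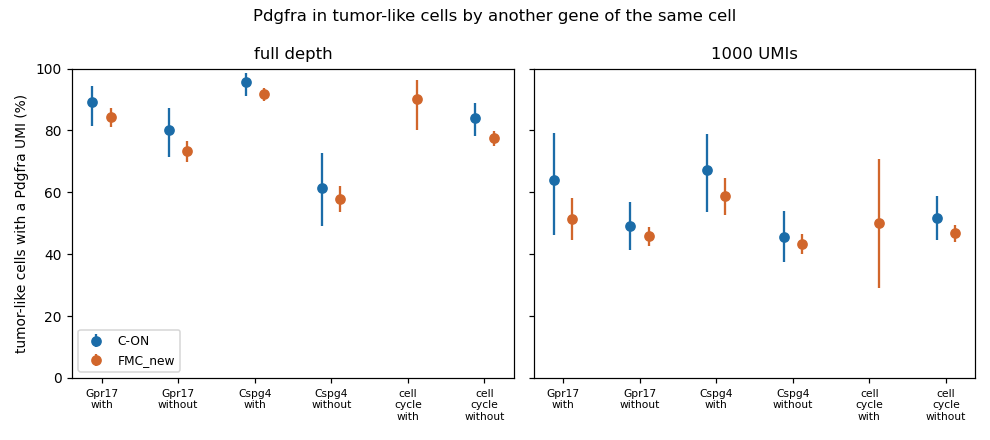
Percent of tumor-like cells with a *Pdgfra* UMI, with 95% Clopper-Pearson intervals, for cells with and without a UMI of *Gpr17*, of *Cspg4* or of at least 2 cell cycle genes, at full depth (left) and at 1000 UMIs per cell (right), in C-ON (blue) and FMC_new (orange); groups under 20 cells are not drawn. At 1000 UMIs the *Cspg4* split in FMC_new was 58.8% against 43.3%.

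*Pdgfra* and *Pdgfa* UMIs occurred in the same cell in 19.2% of tumor-like cells in C-ON (14.2% to 25.2%) and 16.8% in FMC_new (14.8% to 19.0%). Among cells with *Pdgfra*, 22.8% and 21.6% had *Pdgfa*, and among cells without it, 21.2% and 14.8%. All shares of cells with both genes are at full depth. Depth was not made equal between cells with and without *Pdgfra*, and its part in these shares was not tested. *Pdgfra* with *Pdgfc* was found in 3.29% and 2.72% of tumor-like cells. No tumor-like cell of C-ON held both *Pdgfra* and *Pdgfb* (0 of 213, which allows a share of up to 1.72%), and 0.465% of FMC_new did.

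Fibroblast-like cells carried both receptors, in 2 clusters that differed in level. Cluster 55, led by the matrix genes *Dcn* and *Lum*, had 555 CPM of *Pdgfra* in C-ON (409 to 736, 21 cells) and 340 CPM in FMC_new (253 to 447, 32 cells). Cluster 20, led by *Ccn3*, *Ecrg4* and *Slc47a1*, had 24.3 CPM (13.3 to 40.7) and 18.1 CPM (12.9 to 24.6), with 82 and 428 cells. Between fibroblast-like and tumor-like cells, *Pdgfra* was 1 of 5 members at least 4 times higher in tumor-like cells in each library, where 10.5% of 12156 genes were. The folds were 9.86 in C-ON (7.64 to 12.9) and 20.2 in FMC_new (16.4 to 25.1).

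*Pdgfrb* makes the receptor for the B and D chains. Among the classes with 20 cells in each library, it was highest in fibroblast-like cells and rare in the others. Its level was 48.3 CPM in C-ON (33.0 to 68.1, 32 UMIs) and 24.99 CPM in FMC_new (19.0 to 32.2, 59 UMIs), a mean of 36.6 ± 16.5 (SD, n = 2). All other classes with 20 cells in each library had means under 4 CPM, but after SCTransform an astrocyte-like class came first, at a mean of 33.2 CPM against 30.2 CPM in fibroblast-like cells. Of the 41 and 112 *Pdgfrb* UMIs in all kept cells, fibroblast-like cells held 78.0% and 52.7%. A UMI was found in 22.3% and 11.3% of fibroblast-like cells. None of 1000 T cell-like cells of C-ON had one (allowing up to 0.368%), and 0.0871% of those of FMC_new did.

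Cluster 55 again stood above cluster 20, with 116 CPM of *Pdgfrb* (55.4 to 213) against 38.2 CPM (23.9 to 57.8) in C-ON, where the intervals overlapped, and 99.9 CPM (55.9 to 165) against 19.9 CPM (14.5 to 26.7) in FMC_new, where they did not. Mural markers, summed over the list of 13, were at 659 and 2858 CPM in cluster 55 and at 402 and 117 CPM in cluster 20, and their part in these levels was not tested. The mural list includes *Vtn*, one of the leading genes of cluster 55.

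Tumor-like cells held 0 *Pdgfrb* UMIs in C-ON (a level of at most 2.42 CPM at 3 counts) and 1 in FMC_new. The level in fibroblast-like cells was at least 19.9-fold higher in C-ON, taken against that limit of 3 counts per library, and in FMC_new, against 1 count, the ratio was 180.3 (31.1 to 7240). *Pdgfrb* and *Pdgfd* were the 2 of 5 members at least 4 times higher in fibroblast-like than in tumor-like cells in each library, as were 5.66% of the 12156 genes. In astrocyte-like cells, which reached 20 cells in FMC_new alone, *Pdgfrb* stood at 17.5 CPM (7.56 to 34.5, 8 UMIs). This interval overlapped that of fibroblast-like cells in FMC_new.

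The cells in which *Pdgfrb* and *Pdgfb* are best known, pericytes and endothelium, were almost not recovered. By the markers of each cell alone, 10 cells of the 2 libraries met the endothelial list and 1 the mural list. The 10 endothelial cells held 2 UMIs of *Pdgfb* among 29520 and none of *Pdgfrb*, and the mural cell held no member. Over all kept cells of C-ON and FMC_new, *Cldn5* was found in 3 and 11 cells and *Rgs5* in 3 and 17. The 12 endothelial markers ranged from 2 to 329 cells in C-ON (most for *Kdr*) and from 7 to 1077 in FMC_new (*Pecam1*). The 13 mural markers ranged from 0 to 40 cells (*Kcnj8*) and from 1 to 126 (*Notch3*). Levels in vessel cells are therefore not given, and no comparison of endothelial with mural cells could be made.

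Among the ligands, *Pdgfa*, which makes the A chain, was highest in oligodendrocyte-like cells. Its level was 286 CPM in C-ON (281 to 291) and 306 CPM in FMC_new (298 to 314), a mean of 296 ± 14.3 (SD, n = 2). A UMI was found in 79.5% of these cells in C-ON (78.4% to 80.6%) and 77.8% in FMC_new (76.0% to 79.5%). Oligodendrocyte-like cells held 93.4% of the *Pdgfa* UMIs of C-ON and 76.1% of those of FMC_new, beside 71.0% and 17.9% of all UMIs.

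Tumor-like cells had the next mean, at 63.8 CPM in C-ON (50.5 to 79.5) and 53.2 CPM in FMC_new (48.0 to 58.8), a mean of 58.5 ± 7.47 (SD, n = 2), with a UMI in 22.5% and 20.1% of cells. When cells were placed by their own markers instead of by cluster, this mean was 38.2 CPM, and fibroblast-like cells came second at 42.1 CPM. After SCTransform an astrocyte-like class came second, at 68.3 CPM. Oligodendrocyte-like cells were above tumor-like cells 4.48-fold in C-ON (3.59 to 5.67) and 5.75-fold in FMC_new (5.19 to 6.40). From the tumor-like class down to the ninth class in order of the means, microglia-like cells, the ranges of neighbours overlapped. In C-ON alone, macrophage-like (97.1 CPM), NK cell-like (90.7 CPM), pituitary endocrine-like (75.5 CPM) and ILC2-like cells (67.3 CPM) stood above tumor-like cells.

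In all other classes with 20 cells in each library, *Pdgfa* was higher in C-ON, the library richer in oligodendrocyte-like cells. T cell-like cells had 26.3 CPM in C-ON and 4.27 CPM in FMC_new, with a UMI in 5.5% and 1.42% of cells. The summed level of the 11 oligodendrocyte markers in T cell-like cells was 7647 and 1031 CPM, and *Pdgfa* UMIs came to 3.44 and 4.14 per 1000 UMIs of those markers, near the 4.26 and 5.21 of oligodendrocyte-like cells themselves. NK cell-like cells had 90.7 and 12.5 CPM, at 6.19 and 4.79 per 1000. Tumor-like cells had 7.50 and 14.8 per 1000, cluster 8 had 8.03 and 34.0, and cluster 26 had 7.61 and 7.91. Microglia-like cells, at 32.8 and 27.9 CPM, had 6.39 and 46.5 per 1000, so the ratio of FMC_new lay far above that of its oligodendrocyte-like cells. How much of these levels is free RNA was not tested.

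*Pdgfa* and *Pdgfc* had opposite orders within the oligodendrocyte-like cells. Over the 12 clusters with 20 cells in C-ON, *Pdgfa* ran from 126 to 409 CPM (median 266) and *Pdgfc* from 3.64 to 72.9 CPM (median 17.5). Over 13 clusters in FMC_new, *Pdgfa* ran from 153 to 449 CPM and *Pdgfc* from 3.36 to 74.7 CPM. Pearson's r between them was -0.84 in C-ON and -0.74 in FMC_new, given as a description because the clusters share libraries and are not independent. After SCTransform it was -0.86 in C-ON but weaker in FMC_new, at -0.51. In the other clusterings it was also negative in both libraries.

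Cluster 16, led by *Pakap*, *Grm7* and *Grm3*, was at the *Pdgfc* end in both libraries. It had the lowest *Pdgfa*, at 126 CPM (114 to 137) and 153 CPM (131 to 178), and the highest *Pdgfc*, at 72.9 CPM (64.4 to 82.1) and 74.7 CPM (59.4 to 92.7). At the other end, clusters 25 and 11, both with *Nkx2-9* among their leading genes, had 409 and 389 CPM of *Pdgfa* in C-ON and 449 and 422 CPM in FMC_new. Cluster 11 had the lowest *Pdgfc*, at 3.64 and 3.36 CPM.

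*Malat1*, a nuclear RNA, was higher in cluster 16, at 2.12% and 1.54% of UMIs, against 1.22% and 0.948% in cluster 11 and 0.822% and 0.519% in cluster 25. Over the clusters, its r with *Pdgfc* was 0.52 in C-ON and 0.41 in FMC_new and its r with *Pdgfa* -0.66 and -0.55, and the part of nuclear RNA in these levels was not tested. The oligodendrocyte markers were close in these clusters, at 56996 to 69638 CPM in C-ON and 56334 to 63482 CPM in FMC_new.

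**Figure D4:**
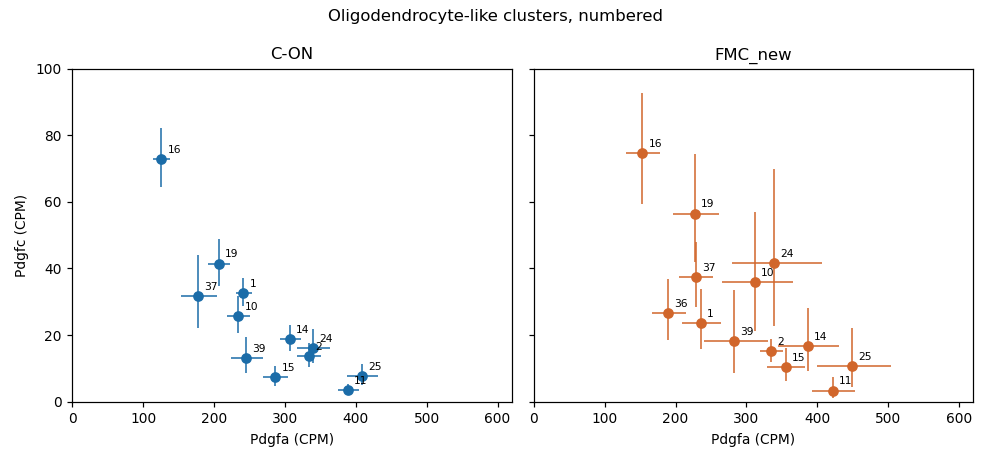
*Pdgfa* (horizontal) against *Pdgfc* (vertical) in the oligodendrocyte-like clusters with at least 20 cells in C-ON (left, 12 clusters) and FMC_new (right, 13 clusters), in CPM with 95% exact Poisson intervals and cluster numbers. Cluster 16 lay highest in *Pdgfc* (72.9 and 74.7 CPM) and lowest in *Pdgfa* (126 and 153 CPM) in both libraries.

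*Pdgfc*, whose product must be cleaved before it binds PDGFRα, was at 23.1 CPM in C-ON (21.8 to 24.6) and 23.7 CPM in FMC_new (21.5 to 26.1) in oligodendrocyte-like cells as a whole, a mean of 23.4 ± 0.407 (SD, n = 2). A UMI was found in 15.3% and 14.7% of these cells, beside 1.2% and 0.0581% of T cell-like cells. They held 91.5% and 67.7% of its UMIs. Tumor-like cells had 5.65 and 5.54 CPM from 7 and 40 UMIs, which made oligodendrocyte-like cells 4.09-fold (1.98 to 10.2) and 4.28-fold (3.09 to 6.08) higher. Fibroblast-like cells had 6.03 and 13.1 CPM, and the mean of ILC2-like cells, second in order, rested on 25 cells of C-ON, with 0 UMIs in FMC_new.

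*Pdgfb*, which makes the B chain for both receptors, was highest in microglia-like cells. Its level was 81.0 CPM in C-ON (65.0 to 99.6) and 91.2 CPM in FMC_new (83.7 to 99.1), a mean of 86.1 ± 7.22 (SD, n = 2), with a UMI in 33.1% and 36.6% of cells. In oligodendrocyte-like cells, taken as the class that should lack it, the share was 0.11% and 0.951% at medians of 7977 and 7756 UMIs. Microglia-like cells had medians of 5943 and 6551 UMIs.

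Border macrophage-like cells, the macrophages of meninges and vessels, followed at 36.7 CPM (28.1 to 47.0) and 49.9 CPM (43.6 to 56.8), below microglia-like cells without overlap. The difference between these classes was 2.21-fold in C-ON (1.58 to 3.10) and 1.83-fold in FMC_new (1.56 to 2.14). None of the 3 members measured in both was 4 times higher in microglia-like cells, where 1.32% of 10917 genes were. The level in border macrophage-like cells differed with how they were delimited. It had a mean of 43.3 CPM here, 13.01 CPM when the libraries were clustered after SCTransform, and 28.4 CPM when cells were placed by their own markers. The last mean rests on 21 cells of C-ON and 23 of FMC_new, with 4 and 1 *Pdgfb* UMIs. Second place changed as well. Macrophage-like cells held it after SCTransform (mean 55.8 CPM) and with 20 components (43.7 CPM). They also held it when cells were placed by their own markers (47.4 CPM, and 46.9 CPM with a mitochondrial limit of 10%).

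Lower *Pdgfb* levels were found in dendritic cell-like cells (27.5 and 20.1 CPM), NK cell-like cells (19.4 and 26.9 CPM) and T cell-like cells (8.93 and 15.2 CPM), and the ranges of dendritic and NK cell-like cells overlapped. Among CD8 cells of the T cell-like class, those with a *Pdcd1* UMI had *Pdgfb* in 8.42% of FMC_new (6.82% to 10.2%) against 4.44% (3.02% to 6.28%) without it, and in 5.21% against 3.90% of C-ON, where the intervals overlapped. Median depths with and without *Pdcd1* were 3845 and 3365 UMIs in FMC_new and 4201.5 and 3320 UMIs in C-ON. As levels, *Pdgfb* stood at 21.2 and 12.6 CPM in FMC_new, but at 10.7 and 10.6 CPM in C-ON. Tumor-like cells held 0 and 8 *Pdgfb* UMIs, and fibroblast-like cells 2 and 6. The receptor *Pdgfra* was at 0 and 2.99 CPM in microglia-like cells and 1.18 and 3.52 CPM in border macrophage-like cells. It was also low in classes with little *Pdgfb*. Oligodendrocyte-like cells had 0.322 and 1.07 CPM of *Pdgfra* and 0.129 and 1.24 CPM of *Pdgfb*.

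*Pdgfd*, a ligand of PDGFRβ released from a latent form, was highest in fibroblast-like cells among the classes with 20 cells in each library. It stood at 73.9 CPM in C-ON (54.7 to 97.7) and 63.1 CPM in FMC_new (53.4 to 74.1), a mean of 68.5 ± 7.63 (SD, n = 2), with a UMI in 27.2% and 21.5% of cells and in 0.1% and 0.174% of T cell-like cells. These levels were 13.1-fold (5.89 to 34.2) and 10.8-fold (7.65 to 15.7) those of tumor-like cells. In contrast to the receptors, *Pdgfd* had no UMI in cluster 55 of C-ON (at most 34.7 CPM at 3 counts) and 59.96 CPM there in FMC_new (27.4 to 114), whereas cluster 20 had 85 CPM (62.9 to 112) and 63.3 CPM (53.3 to 74.7).

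In FMC_new *Pdgfd* was also found in classes with few cells in C-ON. Astrocyte-like cells had 94.1 CPM (68.1 to 127) with a UMI in 17.1% of 152 cells, and the 18 astrocyte-like cells of C-ON held 7 UMIs. Epithelial-like cells had 57.7 CPM (46.5 to 70.7), and the unnamed cluster 47, led by *Scn7a* and *Col25a1* with *Rax* and *Fgf10*, had 67.1 CPM (46.2 to 94.2).

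Pituitary endocrine-like cells held 54.2% of the *Pdgfd* UMIs of FMC_new. Their level was 38.8 CPM in FMC_new (35.3 to 42.5) and ranged from 6.65 CPM (cluster 17, led by *Cidea* with *Tbx19* and *Pomc*) to 95.0 CPM (cluster 43, with *Pomc*, *Pax7* and *Pcsk2*). The *Gh* cluster 31 had 70.8 CPM and the *Tshb* cluster 48 had 70.0 CPM. The 20 cells so named in C-ON, 19 of them from cluster 48, had 62.9 CPM from 10 UMIs.

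**Figure D5:**
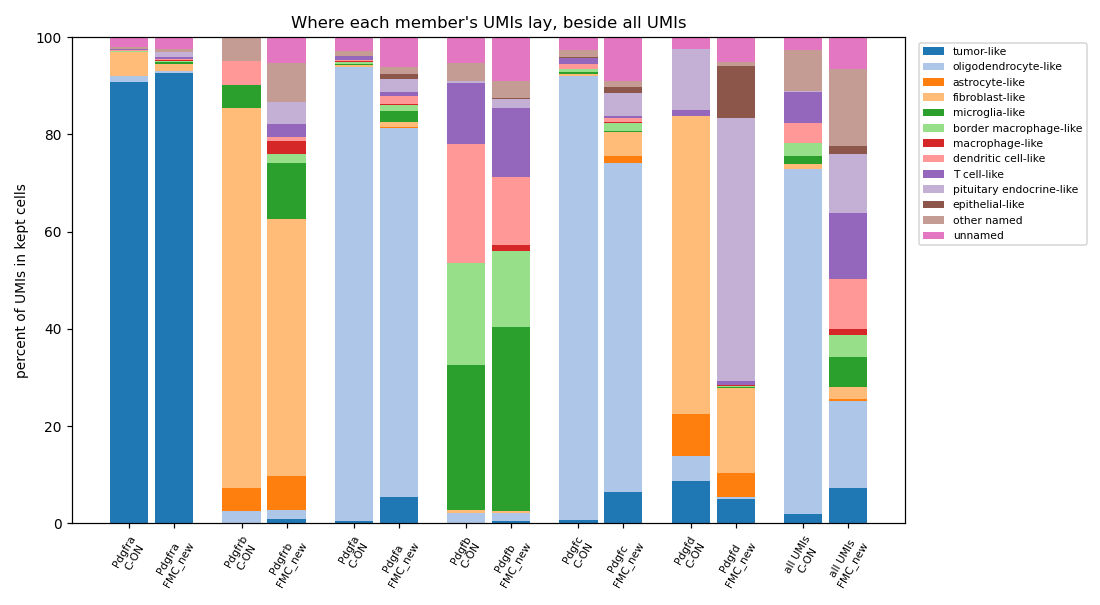
Percent of the UMIs of each PDGF member that fell in each cell class, per library, with all UMIs of the kept cells at the right for comparison; the bars of a library sum to 100%. Tumor-like cells held 90.9% and 92.7% of *Pdgfra*, and fibroblast-like cells 61.2% of *Pdgfd* in C-ON but 17.4% in FMC_new, where pituitary endocrine-like cells held 54.2%.

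The other genes of the pathway were read from 4 lists. Among 7 proteases that can cut latent PDGF or related growth factors, *Pcsk5* and *St14* were at least 4 times higher in tumor-like than in oligodendrocyte-like cells in each library, and the latter rested on 1 UMI in tumor-like cells of C-ON. That is 2 of 7, where 15.9% of all genes measured passed. Of the 5 measured between fibroblast-like and tumor-like cells, *Pcsk5* and *Plat*, whose product activates the C chain, were at least 4 times higher in fibroblast-like cells (5.66% of all genes), *Plat* at 166 and 143 CPM against 26.6 and 35.1 CPM. *Plau*, the protease known for the D chain, stood at 61.0 and 55.6 CPM in microglia-like cells and at 1.51 and 3.39 CPM in fibroblast-like cells.

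Of 6 binding partners, 5 were measured between tumor-like and oligodendrocyte-like cells, and *Lrp1*, an endocytic co-receptor of PDGFRβ, and *Cspg4* passed the 4-fold limit in tumor-like cells (15.9% of all genes). *Lrp1* was at 278 and 266 CPM in tumor-like cells, 341 and 269 CPM in fibroblast-like cells and 0.6 and 2.19 CPM in oligodendrocyte-like cells. In fibroblast-like over tumor-like cells, *Nrp1* (113 and 130 CPM) and *Thbs1* (57.3 and 68.2 CPM) passed, 2 of 6 where 5.66% of all genes did. *Sparc*, whose product binds the B chain, and *Pdgfrl*, a receptor-like gene, passed in microglia-like over border macrophage-like cells (2 of 6, against 1.32% of all genes), *Sparc* at 1470 and 1387 CPM against 33.1 and 74.3 CPM.

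Of 12 genes that carry the signal inside the cell, all 12 were measured and 1 passed in tumor-like over oligodendrocyte-like cells, where 15.9% of all genes did. This was the kinase *Src*, at 46.0 and 47.8 CPM against 5.62 and 6.86 CPM. The median log2 difference of the list, on CPM + 1, was 0.23, beside 0.34 over all genes measured. In tumor-like over fibroblast-like cells *Src* and the phosphoinositide kinase subunit *Pik3r1* passed, 2 of 12 where 10.5% of all genes did. The adaptor *Shc1* passed the other way, 1 of 12 against 5.66% of all genes, at 103 and 95.7 CPM in fibroblast-like cells against 8.08 and 8.60 CPM.

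Of the related receptor kinases, *Kit* was at 25.8 and 19.0 CPM in tumor-like cells against 1.33 and 3.60 CPM in oligodendrocyte-like cells. Its ligand *Kitl* was at 72.4 and 77.5 CPM in fibroblast-like cells against 2.42 and 6.099 CPM in tumor-like cells. Of 12 cell cycle genes, 9 of the 11 measured were at least 4 times higher in tumor-like than in oligodendrocyte-like cells, against 15.9% of all genes, such as *Top2a* at 19.4 and 42.8 CPM against 0.171 and 1.85 CPM.

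Over the 14 classes with 20 cells in each library, the genes closest in pattern were found by the lower of the 2 libraries' Pearson r of log2(CPM + 1), given without a test. For *Pdgfra* these were *Lmcd1* (0.952), *Ttpa* (0.937) and *Emp2* (0.927), and for *Pdgfrb* *Tsku* (0.867), *Col12a1* (0.86) and *Hsf2bp* (0.852). For *Pdgfa* they were *Rnf13* (0.928), *Etv1* (0.909) and *Map7d1* (0.904). For *Pdgfb* they were *Zfp993* (0.887), the chemokine gene *Ccl4* (0.877) and *Gm20528* (0.850). *Pdgfc* had the weakest likeness, with A230056P14Rik (0.761), *Btc* (0.760) and *Tmem28* (0.723), and *Pdgfd* had *Sema3a* (0.942), *Wfdc2* (0.938) and *Ephx2* (0.929).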

How the data were processed

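Single-cell RNA sequencing of 2 libraries of Nf1OPG optic nerve was used as deposited. The authors deposited raw UMI counts per gene and barcode, not normalized, which Cell Ranger had produced on mm10 (version 7.2.0 in the submitters' processing notes, where the paper's methods name another). Whether intronic reads were counted is not given in the sources used here. The authors merged further libraries that are not analysed here.

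Cells were kept with 500 to 5000 genes, 500 to 20000 UMIs and at most 5% mitochondrial UMIs (81.5% of barcodes in C-ON, 78.8% in FMC_new). Values were log-normalized in Seurat 5.3.0 (R 4.3.3), the libraries were joined by CCAIntegration on 2000 variable features (1998 after the members among them were removed), and clusters were drawn from 30 components at resolution 2. A cluster was named when at least 3 markers of a list were in at least 20% of its cells at 2 times the mean of clusters, unless its leading genes or markers of unrelated classes went against the name, which left 14 clusters with 2370 cells unnamed. Levels, intervals, thinning to 1000 UMIs (510 cells of FMC_new and 102 of C-ON were shallower) and folds came from scipy 1.17.1, numpy 2.4.6 and pandas 2.3.3, run in Python 3.11.15. C-ON held 65753232 UMIs in kept cells and FMC_new 99191180, which set the counting intervals. Scrublet (scanpy 1.11.5) called 1 cell of C-ON and 0 of FMC_new, too few to have worked, so doublets were kept.

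Named genes were the members, genes of the lists past 4-fold in both libraries, the 3 most alike genes per member and class markers. Other genes of the lists are counted only, except that *Plau* was named after its values were seen. The members and lists were chosen with earlier results of these data known. Both libraries share 1 group, so no test was run and no p-value is given. Alternatives were other clusterings, cells placed by their own markers, a mitochondrial limit of 10%, means over cells, other folds and leaving out a library.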

Additional observations from a re-analysis of the deposited data

How the results depend on the processing

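The *Gpr17* and *Cspg4* splits kept their direction as means over both libraries, although the *Cspg4* split of C-ON reversed at 500 UMIs. Levels, shares of UMIs and counts of genes cannot change direction. Of 167 values under alternatives, 127 moved by less than the spread between the libraries (for counts of genes, less than 1.5 times), and 40 moved by more. The 127 include the values with a library left out, which by arithmetic always fall within that spread. Values below are means over both libraries, and the cause of the moves was not tested. When cells were placed by their own markers, and then with a mitochondrial limit of 10% as well, *Pdgfra* in tumor-like cells stood at 1010.5 and 996.7 CPM, its share of UMIs there at 87.8% and 86.7%, *Pdgfa* in oligodendrocyte-like cells at 277 and 275 CPM and in tumor-like cells at 38.2 and 37.8 CPM, *Pdgfc* in oligodendrocyte-like cells at 21.9 and 22.0 CPM, *Pdgfb* in border macrophage-like cells at 28.4 and 28.2 CPM, and the share of *Pdgfb* UMIs in microglia-like cells at 6.04% and 5.99%. Those means of *Pdgfb* in border macrophage-like cells rest on 21 cells of C-ON, and on 23 or 25 of FMC_new. *Pdgfb* in microglia-like cells was at 77.4 CPM with the limit of 10%. With the members kept in the clustering it was 78.8 CPM, and the *Pdgfra* share 89.5%. *Pdgfb* in border macrophage-like cells was at 13.01 CPM after SCTransform and 19.2 CPM with 20 components, and microglia-like cells held 12.8% of its UMIs after SCTransform. As a mean over single cells, *Pdgfa* and *Pdgfc* in oligodendrocyte-like cells were at 280.7 and 27.1 CPM. The *Cspg4* split was 34.2 percentage points at full depth and 2.44 at 500 UMIs.

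With a fold of 2, 8 or no filter on low counts, genes called were 3983 (2-fold) and 3659 (no filter) in tumor-like over oligodendrocyte-like cells, 1317, 196 and 1407 the other way, 1198 (2-fold) and 1155 (no filter) in fibroblast-like over tumor-like cells, 2273, 816 and 2632 the other way, and 550, 59 and 485 in microglia-like over border macrophage-like cells. An alternative chosen after seeing the data left out the 10% of cells with the highest doublet scores and gave 965 CPM for *Pdgfra* and 50.6 CPM for *Pdgfa* in tumor-like cells, and a *Pdgfra* share of 93.8%. Removal of called doublets was void, because 1 cell was called, and the endothelial and mural comparison was not run for want of cells. Leaving out a library gave the value of the other, as printed for each. No paired analysis was possible because both libraries belong to 1 group. *Pdgfrb* had the fewest UMIs of the members over all kept cells, at 41 in C-ON and 112 in FMC_new. The parts of depth and of cell make-up in these low totals were not tested.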
